A study of Mus musculus with 32 samples.

Results

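Complexes II to V of the mitochondrial respiratory chain were followed in the tibialis anterior, a fast limb muscle, of Gaa-/- and wild-type (WT) mice. The genes were taken by symbol: Sdha to Sdhd for complex II, and every gene whose symbol starts with Uqcr for complex III, with Cox4 to Cox8 for complex IV and with Atp5 for complex V. The rule gave 47 of the 19291 genes measured, with 1 probe set each: 4 in complex II, 8 in complex III, 18 in complex IV and 17 in complex V. Cyc1, a complex III subunit, Ndufa4, now placed in complex IV, and the subunits encoded in mitochondrial DNA do not have such symbols. The 8 groups were WT and Gaa-/- mice at 1.5, 4, 6 and 9 months, with 4 arrays from 4 animals in each. The labels give the strain of both genotypes as B6/129 and the knockout genotype as GAA-KO 6neo/6neo, an allele in which a neomycin cassette interrupts Gaa in every cell of the animal. The product of Gaa, acid alpha-glucosidase, degrades glycogen in lysosomes, and its loss causes Pompe disease. Neither sex nor litter was labelled.

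The respiratory chain passes electrons from NADH and succinate to oxygen, and ATP synthase uses the proton gradient that this builds. Complex II (succinate dehydrogenase) belongs to both the citric acid cycle and the chain, complex III (cytochrome bc1) hands electrons to cytochrome c, complex IV (cytochrome c oxidase) reduces oxygen, and complex V is ATP synthase. Several nuclear subunits of complex IV come as pairs of genes, with Cox6a2, Cox7a1 and Cox8b as the forms of heart and skeletal muscle and Cox6a1, Cox7a2 and Cox8a as the forms found in most tissues.

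The promoters of 4 genes are shown because these genes stand for the groups described: a muscle isoform (Cox8b), its partner (Cox8a), the partner of the muscle isoform with the clearest difference between genotypes (Cox6a1), and a complex III gene that fell with age in both genotypes (Uqcr11). The letters are the 250 bases before the annotated start, 5′ to 3′, from RefSeq (GRCm38.p6). All 4 lie on the minus strand, Cox8b at chr7:140900447-140900696, Cox8a at chr19:7217617-7217866, Cox6a1 at chr5:115348959-115349208 and Uqcr11 at chr10:80406822-80407071. Capitals mark matches to searched motifs.
Cox8b: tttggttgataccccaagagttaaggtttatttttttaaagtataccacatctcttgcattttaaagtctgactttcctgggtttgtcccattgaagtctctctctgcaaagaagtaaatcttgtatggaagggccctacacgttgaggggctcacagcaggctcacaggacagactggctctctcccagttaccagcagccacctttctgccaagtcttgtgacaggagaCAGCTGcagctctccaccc
Cox8a: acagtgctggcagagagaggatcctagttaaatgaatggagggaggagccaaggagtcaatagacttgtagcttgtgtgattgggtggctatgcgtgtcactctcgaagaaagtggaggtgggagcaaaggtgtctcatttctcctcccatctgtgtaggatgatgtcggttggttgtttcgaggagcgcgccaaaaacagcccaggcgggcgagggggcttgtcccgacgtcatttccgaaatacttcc
Cox6a1: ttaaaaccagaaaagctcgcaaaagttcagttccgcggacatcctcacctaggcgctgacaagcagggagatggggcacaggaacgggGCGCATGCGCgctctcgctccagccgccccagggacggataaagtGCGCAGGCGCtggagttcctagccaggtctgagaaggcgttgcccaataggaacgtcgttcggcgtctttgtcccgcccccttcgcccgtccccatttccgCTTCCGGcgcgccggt
Uqcr11: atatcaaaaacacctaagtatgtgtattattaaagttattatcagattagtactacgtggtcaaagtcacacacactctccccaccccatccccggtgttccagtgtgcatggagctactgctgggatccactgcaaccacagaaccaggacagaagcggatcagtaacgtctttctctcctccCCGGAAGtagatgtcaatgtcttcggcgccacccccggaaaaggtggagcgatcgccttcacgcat
In Cox8b the capitals are an E-box of the kind bound by myogenic factors (CAGCTG), 19 bases before the start. Cox6a1 held NRF1 motifs (GCGCA and GCGC with any 1 base between them) beginning 162 and 117 bases before the start and an ETS motif (CCGGAAG, here on the other strand) at 16 bases. Uqcr11 held an ETS motif at 66 bases, and the Cox8a window held no match. Over the 36 of the 47 genes with a window in the table, 7 (19.4%) held the NRF1 motif on either strand, against 4.23% of all 27025 genes in it. The ETS motif was in 9 (25%), against 7.83%. The YY1 motif (AANATGGC) was in 1 against 4.49% of all genes, the ERR half-site (AAGGTCA) in 2 against 4.70%, TATAAA in 3 against 14.3% and CAGCTG in 2 against 14.7%. Both strands were searched, and no motif overlapped another in the windows shown. A match is a description of letters and not of binding, and Cox6a2 is named only.

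Gaa itself, the targeted gene, read 6.44 to 7.25 on the log2 scale on the 16 Gaa-/- arrays and 10.09 to 10.70 on the 16 WT arrays, so every array fell on the side its label gives. The 10 skeletal muscle markers, such as Acta1 and Myh4, read between 11.85 and 13.79 on all 32 arrays. Precision is set by the number of arrays, since an array has no read depth. Probe sets differ in their response, so values are compared between groups within a gene and never between genes. Of the 47 genes, 43 lay above the lowest array median (5.66) on all 32 arrays. The dim ones were Cox7b2, Cox6b2, Cox8c and Cox4i2, all isoforms that muscle is not known for. The array spread, the SD of all values of an array, was 1.84 ± 0.045 (SD, n = 4) in WT mice of 9 months and had means of 1.91 to 1.99 in the other 7 groups. On 3 arrays, picked after seeing the values, the median of the 47 genes lay farthest below the other arrays of the group. As deviations from the 32-array means, WT 9 months replicate 1 lay at -0.48 (the others from -0.31 to -0.13, with no clear gap), Gaa-/- 4 months replicate 1 at -0.19 (0.07 to 0.15) and Gaa-/- 9 months replicate 2 at -0.33 (-0.21 to -0.06). The main results were also fitted without these 3 low arrays.

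In WT muscle, respiratory chain genes fell between 1.5 and 9 months. Of the 47 genes, 34 fell and 0 rose past an adjusted p of 0.05 (limma, Benjamini-Hochberg over all 19291 genes), where 9.78% of all genes fell and 4.6% rose, and the median change was -0.44 against 0.02 over all genes. In Gaa-/- muscle 13 fell and 0 rose, where 2.07% of all genes fell and 2.02% rose, and the median change was -0.25 against 0.01. In bulk tissue, fewer cells of a type and less RNA per cell cannot be told apart. The same question put to all 4 ages at once (moderated F-test) called 32 of 47 genes in WT, where 19% of all genes were called, and 11 in Gaa-/-, where 4.68% were.

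In complex III, 8 of 8 genes fell in WT and 4 of 8 in Gaa-/-, with median changes of -0.63 and -0.40. In complex II, 3 of 4 fell in WT and 1 of 4 in Gaa-/-, with medians of -0.41 and -0.16. In complex IV, 11 of 18 fell in WT and 3 of 18 in Gaa-/-, with medians of -0.45 and -0.19. In complex V, 12 of 17 fell in WT and 5 of 17 in Gaa-/-, with medians of -0.37 and -0.21. Whether the complexes differed from each other was not tested.

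**Figure D1:**
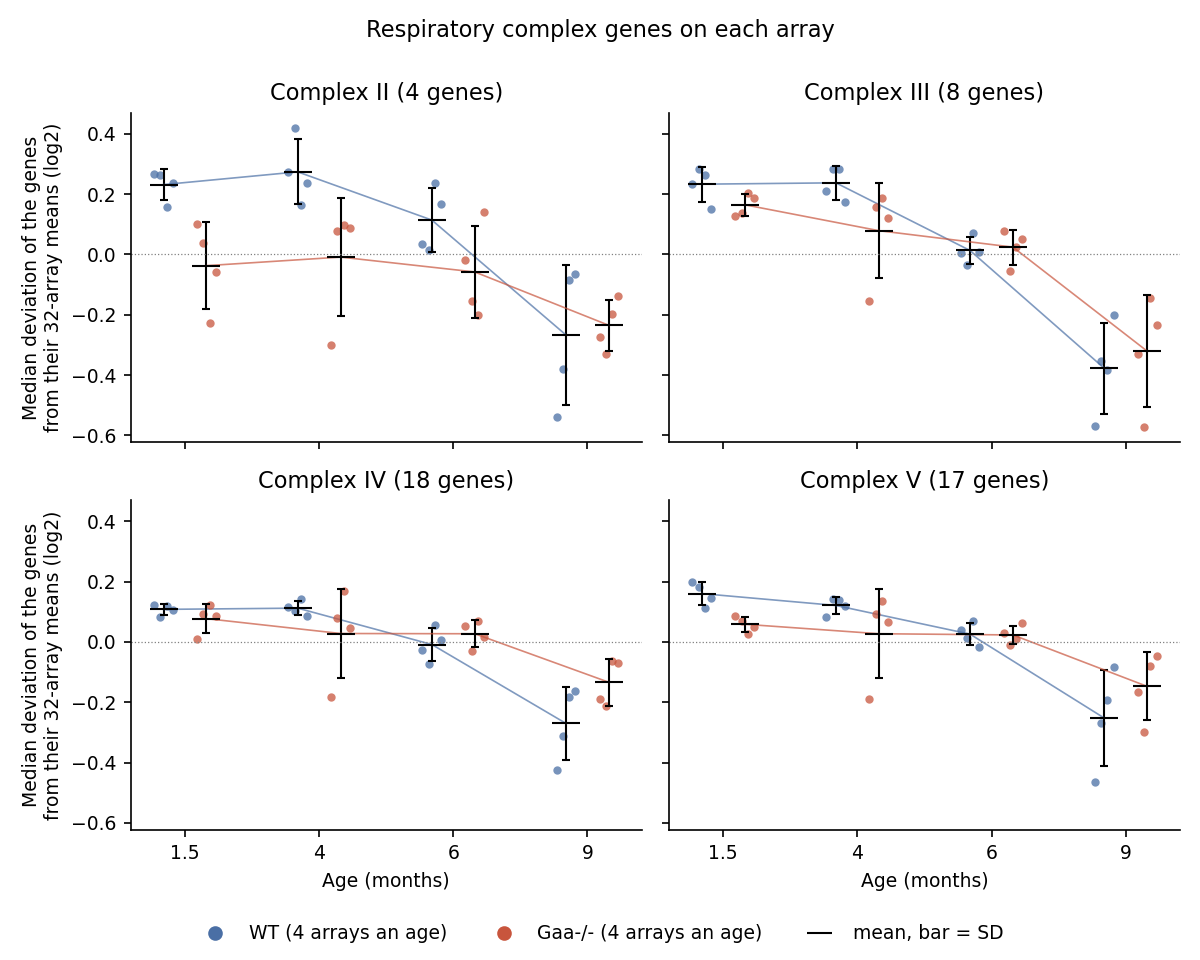
For each complex, the median over its genes of the deviation from their 32-array means (log2, vertical axis) is plotted by age in months (horizontal axis, ages evenly spaced), 1 point per array, with group means and SD bars. The group means of 9 months lie lowest in both genotypes in these values, and in complex II every Gaa-/- array lies below every WT array at 1.5 and at 4 months.

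Of the steps between neighbouring ages, only that from 6 to 9 months gave calls. From 1.5 to 4 months and from 4 to 6 months no gene of the 47 was called in either genotype, at an all-gene background of 0.456% and 0% in WT and 1.06% and 0% in Gaa-/- (unadjusted p under 0.05 for 4 and 9 of the 47 in WT and for 7 and 2 in Gaa-/-). As 0% of all genes passed from 4 to 6 months, the lack of calls in that step cannot date the fall. Between 4 and 6 months 43 of the 47 lay below zero in WT, with a median change of -0.14, and 29 in Gaa-/-, with a median of -0.01. From 6 to 9 months 17 fell in WT, where 6.34% of all genes fell, and 3 fell in Gaa-/-, where 0.145% did. The 3 were Cox7a1 (-0.49, adjusted p = 0.024), Uqcr10 (-0.54, adjusted p = 0.027) and Uqcr11 (-0.50, adjusted p = 0.027). Leaving out the arrays of 9 months left 0 of the 47 called by the F-test over 1.5, 4 and 6 months in either genotype, with 12 in WT and 6 in Gaa-/- at an unadjusted p under 0.05. As at most 1.06% of all genes were called in a step between these ages, this 0 cannot date the fall either.

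The WT count moved with the scaling of the arrays. With the array spread as a covariate 15 of the 34 still fell, and after a second quantile normalization 15 fell while Atp5c1 and Atp5o rose. Without the 3 low arrays 31 of the 34 fell. The shares of all genes that fell under these settings are not set beside these counts. Whether the drop was particular to the respiratory genes thus cannot be read from them. Under all 3 settings 12 genes fell: Sdhd in complex II, Uqcr10, Uqcrfs1 and Uqcrh in complex III, Cox6a1, Cox6b1, Cox6c, Cox7a1 and Cox7b in complex IV, and Atp5b, Atp5d and Atp5g3 in complex V. Among the 386 other genes with a mean level of at least 10, 38.1% fell in WT (median -0.21), against 25 of the 30 respiratory genes at that level (median -0.45). In Gaa-/- 11.9% of these other genes fell (median -0.09), against 9 of the 30 (median -0.27). At levels from 8 to 10, 6.55% of other genes fell in Gaa-/-, against 4 of 12 respiratory genes. The Gaa-/- background was thus higher among bright genes than the 2.07% over all genes. The part of the narrower array spread in the WT result was not tested beyond these values.

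Of the 13 genes that fell in Gaa-/-, 10 fell under all 3 of those settings: Sdhd, Uqcr10, Uqcr11, Uqcrh, Uqcrq, Cox6b1, Cox7a1, Cox8b, Atp5d and Atp5md. Without Gaa-/- 9 months replicate 2 alone the count was 6, again with no share of all genes beside it. Both genotypes had 12 falling genes in common, those 10 with Atp5g1 and Atp5j2, which was 35.3% of the WT list and 92.3% of the Gaa-/- list. Atp5e was called in Gaa-/- and not in WT. For 36 of the 47 genes the change was more negative in WT than in Gaa-/-. The test of that difference, the interaction of genotype with age from 1.5 to 9 months, called 0 of the 47, where 1.46% of all genes were called (limma; unadjusted p under 0.05 for 17 genes). The lists thus differed in length, while no gene passed the test of a different change.

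**Figure D2:**
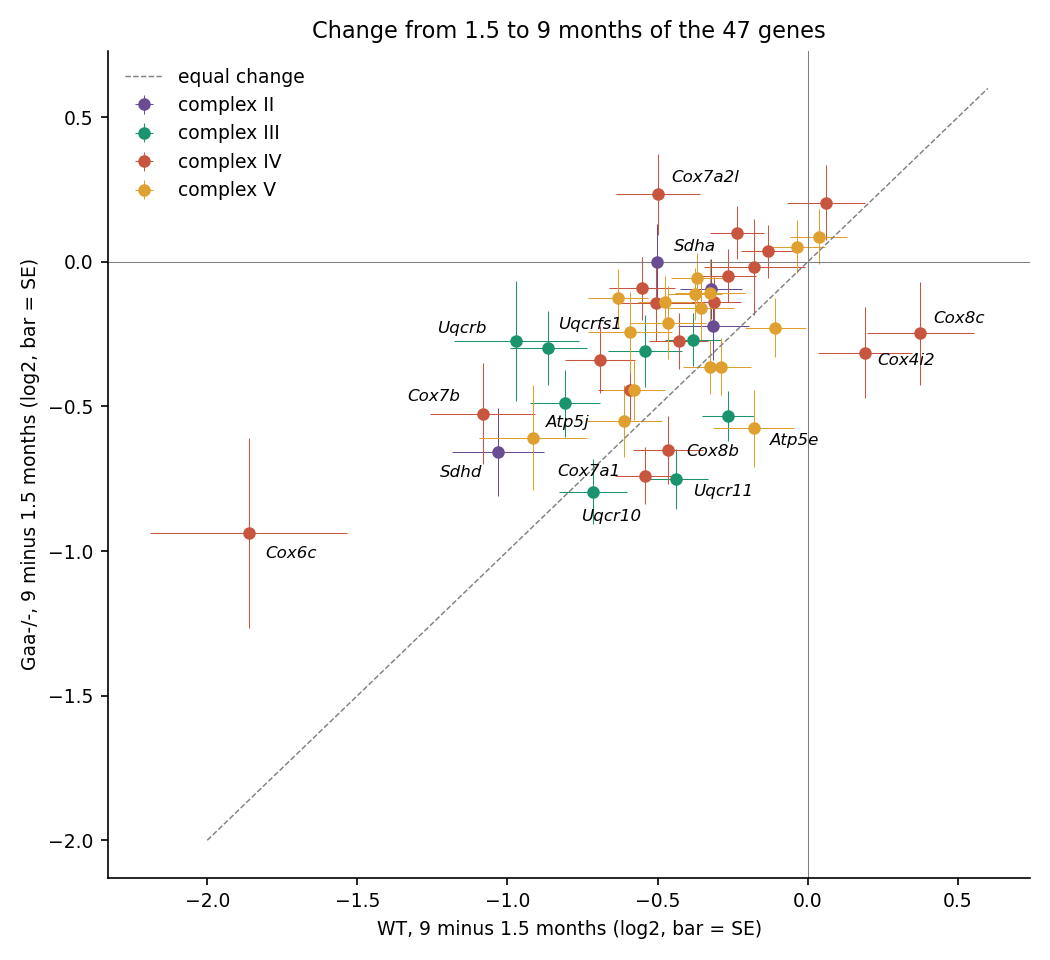
Change from 1.5 to 9 months (log2, bars are SE) of each of the 47 genes in WT (horizontal axis) and in Gaa-/- (vertical axis), coloured by complex, with a dashed line of equal change. Most points lie left of 0 and above the line, Cox6c lies farthest left at -1.86, and Uqcr11, Cox8b, Cox7a1 and Atp5e lie below the line.

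Complex II was described by all of its 4 genes. Sdhd, one of the anchors that hold the enzyme in the membrane, read 10.39, 10.22, 10.07 and 10.18 in WT mice of 1.5 months and 8.88, 9.08, 9.25 and 9.54 at 9 months. All 4 older arrays were below all 4 younger ones, and the gene fell by 1.03 ± 0.15 (log2, SE; 2.04-fold, adjusted p = 3.61e-05). In Gaa-/- mice Sdhd read 9.94, 10.05, 9.95 and 10.07 at 1.5 months and 9.47, 8.94, 9.48 and 9.49 at 9 months, a fall of 1.58-fold (-0.66 ± 0.15, adjusted p = 0.00923). The older group was again lower throughout, and without its lowest array, replicate 2, the change was -0.52 with an adjusted p of 0.0599.

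Sdha, the flavoprotein that oxidizes succinate, read 9.11, 9.11, 9.04 and 8.82 in young WT mice and 8.21, 8.43, 8.65 and 8.78 in old ones. It fell in WT by 0.50 ± 0.13 (adjusted p = 0.00936), with no overlap between the ages. That call was lost with the array spread as a covariate (-0.22, adjusted p = 0.351) and after quantile normalization (-0.32, adjusted p = 0.0502). In Gaa-/- its mean was 8.71 at both ages (adjusted p = 1). The iron-sulfur subunit Sdhb fell in WT by 0.32 ± 0.10 (adjusted p = 0.0334; -0.12 with the covariate and -0.07 after quantile normalization, neither called), and its change in Gaa-/- was -0.09 ± 0.10.

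Sdhc, the other anchor, was the complex II gene that differed between genotypes. In WT it read 9.58, 9.57, 9.43 and 9.61 at 1.5 months, 9.57, 9.48, 9.43 and 9.41 at 4 months, 9.57, 9.37, 9.63 and 9.48 at 6 months and 8.97, 8.97, 9.57 and 9.44 at 9 months. In Gaa-/- it read 9.40, 9.32, 9.03 and 9.16, then 8.94, 9.05, 9.22 and 9.22, then 9.21, 9.17, 9.17 and 9.14, and last 8.91, 8.98, 8.94 and 9.19. At 1.5, 4 and 6 months every Gaa-/- array was below every WT array, and at 9 months the groups overlapped. Over all ages Sdhc was 1.24-fold lower in Gaa-/- (-0.31 ± 0.059, adjusted p = 0.000133), although no single age passed the threshold (adjusted p = 0.152, 0.0623, 0.0883 and 0.217 in order of age). It kept its call in each of the 32 fits that left out 1 array.

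In complex III the small subunits Uqcr10 and Uqcr11 fell in both genotypes. Uqcr10 read 9.95, 10.08, 10.08 and 9.91 in young WT mice and 9.17, 9.41, 9.24 and 9.34 in old ones, a fall of 0.71 ± 0.11 (1.64-fold, adjusted p = 6.98e-05). In Gaa-/- it read 9.985, 10.004, 10.094 and 10.022 at 1.5 months and 9.07, 9.02, 9.40 and 9.44 at 9 months, a fall of 0.80 ± 0.11 (1.74-fold, adjusted p = 3.31e-05). All old arrays were below all young ones in each genotype, and the difference between the 2 changes was -0.08 ± 0.16.

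Uqcr11 read 8.41, 8.52, 8.71 and 8.39 in young WT mice and 8.02, 7.93, 8.11 and 8.23 in old ones, a fall of 0.44 ± 0.10 (adjusted p = 0.0043; -0.28 and adjusted p = 0.0738 after quantile normalization). In Gaa-/- it read 8.68, 8.65, 8.88 and 8.76 and then 7.92, 7.84, 8.05 and 8.16, a fall of 0.75 ± 0.10 (adjusted p = 2.63e-05). The Gaa-/- mean started higher, at 8.74 against 8.51, and ended at 7.99 against 8.07. The hinge protein Uqcrh fell by 0.81 ± 0.12 in WT and by 0.49 ± 0.12 in Gaa-/-, and Uqcrq fell by 0.26 ± 0.086 and by 0.53 ± 0.086. After quantile normalization the WT change of Uqcrq was 0.0062 (adjusted p = 0.978).

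Uqcrfs1, the Rieske iron-sulfur protein that takes electrons from ubiquinol, read 10.79, 10.91, 10.72 and 10.62 in young WT mice and 9.66, 9.78, 9.90 and 10.24 in old ones, a fall of 0.86 ± 0.13 (1.82-fold, adjusted p = 3.61e-05). In Gaa-/- mice of 1.5 months it read 10.51, 10.42, 10.54 and 10.35, already below every young WT array, and its change to 9 months was -0.30 ± 0.13 (adjusted p = 0.228). At 4 months the WT arrays read 10.67, 10.88, 10.86 and 10.82 and the Gaa-/- arrays 9.97, 10.45, 10.54 and 10.55. That difference, 1.35-fold lower in Gaa-/- (-0.43 ± 0.13, adjusted p = 0.0391), was not called without the lowest Gaa-/- array, replicate 1 (-0.30), and was lost in 5 of the 8 fits that left out 1 array of either group. The core proteins Uqcrc1 and Uqcrc2 were lower in Gaa-/- over all ages, with differences of -0.15 ± 0.047 (adjusted p = 0.0228) and -0.20 ± 0.062 (adjusted p = 0.0173).

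Uqcrb read 12.21, 12.23, 12.16 and 12.18 in young WT mice and 10.67, 11.56, 10.99 and 11.69 in old ones, a fall of 0.97 ± 0.21 (1.96-fold, adjusted p = 0.00182). In Gaa-/- mice of 9 months 3 arrays read 11.98, 11.83 and 12.05 and replicate 2 read 10.67. With an SD of 0.65 in that group its change of -0.27 ± 0.21 was not called (adjusted p = 0.58). Adding the array spread as a covariate gave a WT change of -0.64 (adjusted p = 0.103).

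**Figure D3:**
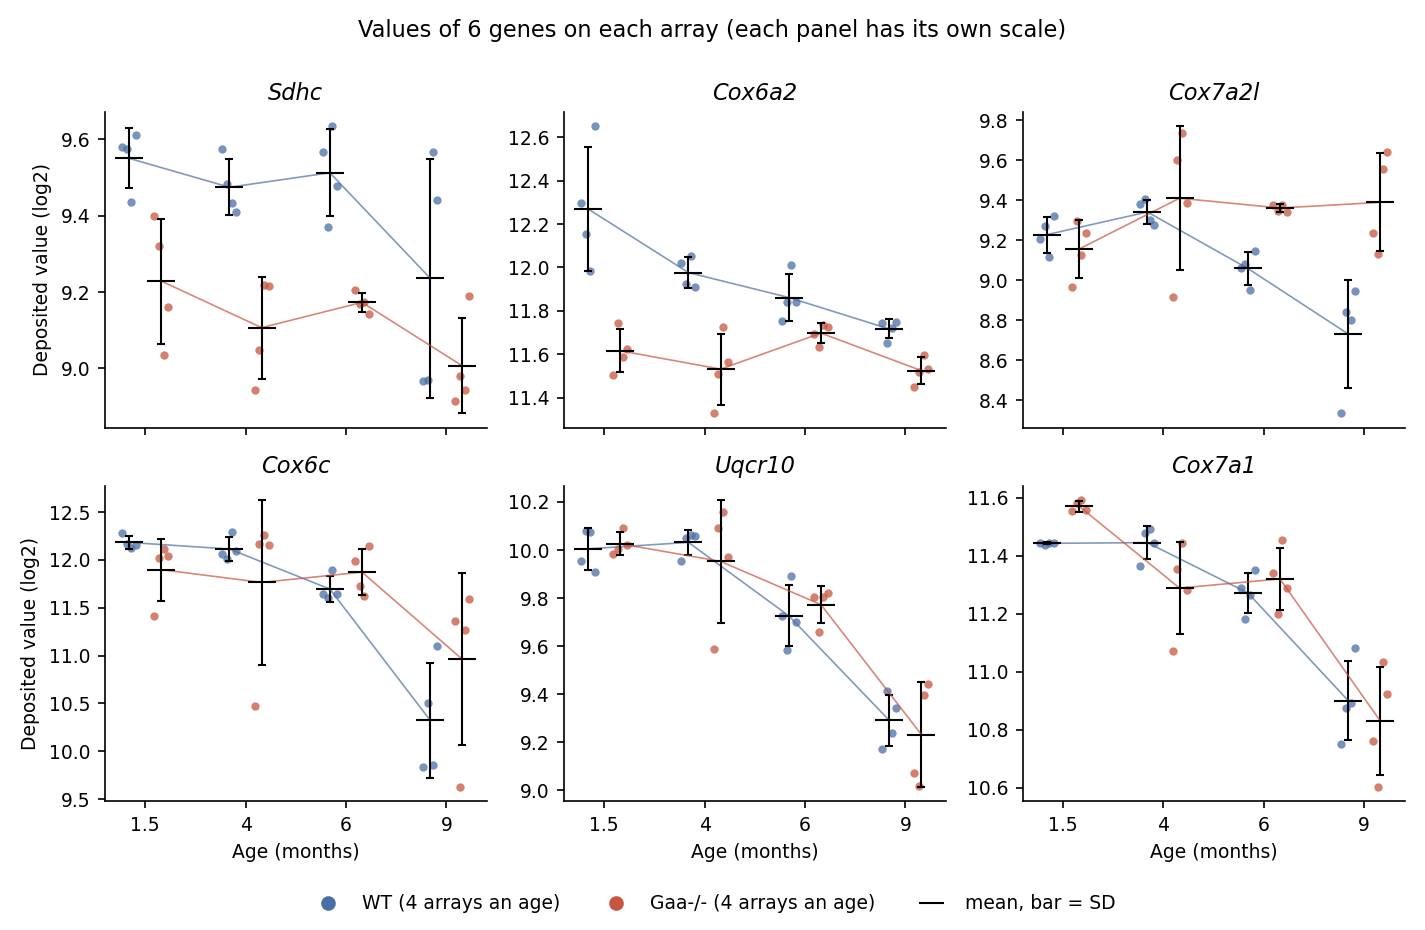
Deposited log2 values of 6 genes on every array by age in months (ages evenly spaced), WT in blue and Gaa-/- in red, with group means and SD bars. Uqcr10 and Cox7a1 fall with narrow scatter in both genotypes, Cox6c has single low Gaa-/- arrays at 4 and 9 months, and Sdhc and Cox6a2 lie lower in Gaa-/- at 1.5 and 4 months.

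In complex IV the largest WT change of all 47 genes was that of Cox6c, a subunit with a single form in all tissues. It read 12.29, 12.17, 12.12 and 12.15 at 1.5 months, 12.07, 12.01, 12.29 and 12.10 at 4 months, 11.64, 11.60, 11.90 and 11.64 at 6 months and 9.83, 10.51, 9.86 and 11.10 at 9 months. The WT groups of 1.5 and 9 months did not overlap, and the gene fell 3.63-fold (-1.86 ± 0.33, adjusted p = 0.000259). In Gaa-/- mice of 9 months it read 11.36, 9.63, 11.27 and 11.59, and its change of -0.94 ± 0.33 was not called (adjusted p = 0.111). Gaa-/- 4 months replicate 1 read 10.48 where the other 3 arrays of that group read 12.16 to 12.26.

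Cox7b, another small subunit, read 11.39, 11.36, 11.18 and 11.25 in young WT mice and 9.85, 10.29, 10.06 and 10.66 in old ones. It fell 2.12-fold (-1.08 ± 0.17, adjusted p = 9.65e-05), and its change in Gaa-/- was -0.53 ± 0.17 (adjusted p = 0.0881). Cox6b1, the form of subunit VIb outside the testis, fell in both genotypes, by 0.59 ± 0.10 in WT (adjusted p = 0.000258) and by 0.44 ± 0.10 in Gaa-/- (adjusted p = 0.0102). Its partner Cox6b2 was below the lowest array median on all arrays, between 4.19 and 5.51, and no level is read from it.

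In complex V subunit c, the ring that turns with the protons, has 3 genes. Atp5g3 read 11.41, 11.35, 11.32 and 11.25 in young WT mice and 10.42, 10.66, 10.85 and 10.88 in old ones, a fall of 0.63 ± 0.10 (1.55-fold, adjusted p = 7.78e-05). In Gaa-/- it read 11.10, 11.10, 11.08 and 11.07 and then 10.95, 10.86, 11.07 and 10.97, with a change of -0.12 ± 0.10 (adjusted p = 0.609). The difference between these changes was 0.51 ± 0.14 (adjusted p = 0.065). Atp5g1 fell by 0.29 ± 0.098 in WT (adjusted p = 0.0454) and by 0.36 ± 0.098 in Gaa-/- (adjusted p = 0.0286), while Atp5g2 fell by 0.37 ± 0.090 in WT (adjusted p = 0.00469), with a change of -0.11 ± 0.090 in Gaa-/-. Neither WT call held with the covariate (adjusted p = 0.213 and 0.0864) or after quantile normalization (-0.04 and -0.09), and the Gaa-/- call of Atp5g1 did not hold after the latter (adjusted p = 0.074). The 3 genes were not tested against each other.

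Atp5j, coupling factor 6 of the stalk, was the complex V gene with a difference between genotypes. In WT it fell by 0.92 ± 0.18 from 1.5 to 9 months (adjusted p = 0.000856), a call not kept with the array spread as a covariate (-0.49, adjusted p = 0.0934). Over all ages it was 1.32-fold lower in Gaa-/- (-0.40 ± 0.091, adjusted p = 0.00134), although no single age passed the threshold. At 6 months the WT arrays read 10.68, 10.67, 10.84 and 10.62 and the Gaa-/- arrays 10.32, 10.16, 10.03 and 10.46, with no overlap. At 9 months the groups overlapped, with 9.29, 10.07, 9.84 and 10.43 in WT and 9.90, 9.10, 10.01 and 9.98 in Gaa-/-. Atp5e, the epsilon subunit of the rotor, ran the other way at 1.5 months, with 8.85, 8.64, 8.67 and 8.65 in Gaa-/- above 8.21, 8.35, 8.44 and 8.23 in WT (0.40 ± 0.13, adjusted p = 0.102). It then fell in Gaa-/- by 0.57 ± 0.13 to 9 months (adjusted p = 0.00935; -0.41 and adjusted p = 0.0642 without replicate 2), while its WT change was -0.18 ± 0.13. Atp5l, subunit g of the membrane part, fell in WT by 0.47 ± 0.13 (adjusted p = 0.0115; 0.318 with the covariate and 0.145 after quantile normalization), with a change of -0.21 ± 0.13 in Gaa-/-.

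Between genotypes, few genes of complexes II to V differed at any 1 age. At 1.5 months 1 of 47 was called, lower in Gaa-/-, where 3.63% of all genes were called, 2.08% higher and 1.55% lower. At 4 months 2 were called, both lower, where 5.7% of all genes were, 3.4% higher and 2.3% lower. At 6 months 0 were called, where 6.36% of all genes were (limma; unadjusted p under 0.05 for 5). At 9 months 5 were called, 4 higher and 1 lower in Gaa-/-, where 11.9% of all genes were called, 8.12% higher and 3.8% lower. These shares are near or below the background. Under the array-spread covariate 7 were called at 4 months, all lower (6.86% of all genes called), and at 9 months the count ran from 2, without Gaa-/- replicate 3, to 9, without Gaa-/- replicate 2. Over all ages, the mean of the 4 differences, 11 of 47 (23.4%) were called, 4 higher and 7 lower, where 19.5% of all genes were, 10.7% higher and 8.81% lower. The test of whether the difference changed among the 4 ages called 0, where 0.549% of all genes were called (unadjusted p under 0.05 for 5).

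The median difference of the 47 genes was -0.11 at 1.5 months and -0.11 at 4 months, 0.00 at 6 months and 0.08 at 9 months, beside all-gene medians of -0.02, -0.04, -0.00 and -0.03. The value at 9 months became -0.022 with the array spread as a covariate and -0.035 after a second quantile normalization, and it was -0.0066 without WT 9 months replicate 1, so its sign is not settled. The value at 4 months was -0.02 without Gaa-/- 4 months replicate 1. Equally bright genes outside the 47 also lay above zero at 9 months. At a mean level of at least 10 their median difference was 0.10, against 0.13 for the respiratory genes. At levels from 8 to 10 it was 0.14, against 0.08. All 4 genes of complex II lay below zero at 1.5, 4 and 6 months, with medians of -0.26, -0.30 and -0.14, and 3 of 4 lay above at 9 months (median 0.10). Fitted without the arrays of 9 months, a choice made after seeing the data, the mean difference called 12 of the 47 genes. Atp5e was higher and 11 were lower, where 15.1% of all genes were called, 7.7% higher and 7.44% lower. The 11 included all 4 complex II genes (Sdha -0.22, Sdhb -0.18, Sdhc -0.34, Sdhd -0.24), Uqcrc1, Uqcrc2 and Uqcrfs1 of complex III, Cox6a2 of complex IV, and Atp5g3, Atp5j and Atp5pb of complex V.

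**Figure D4:**
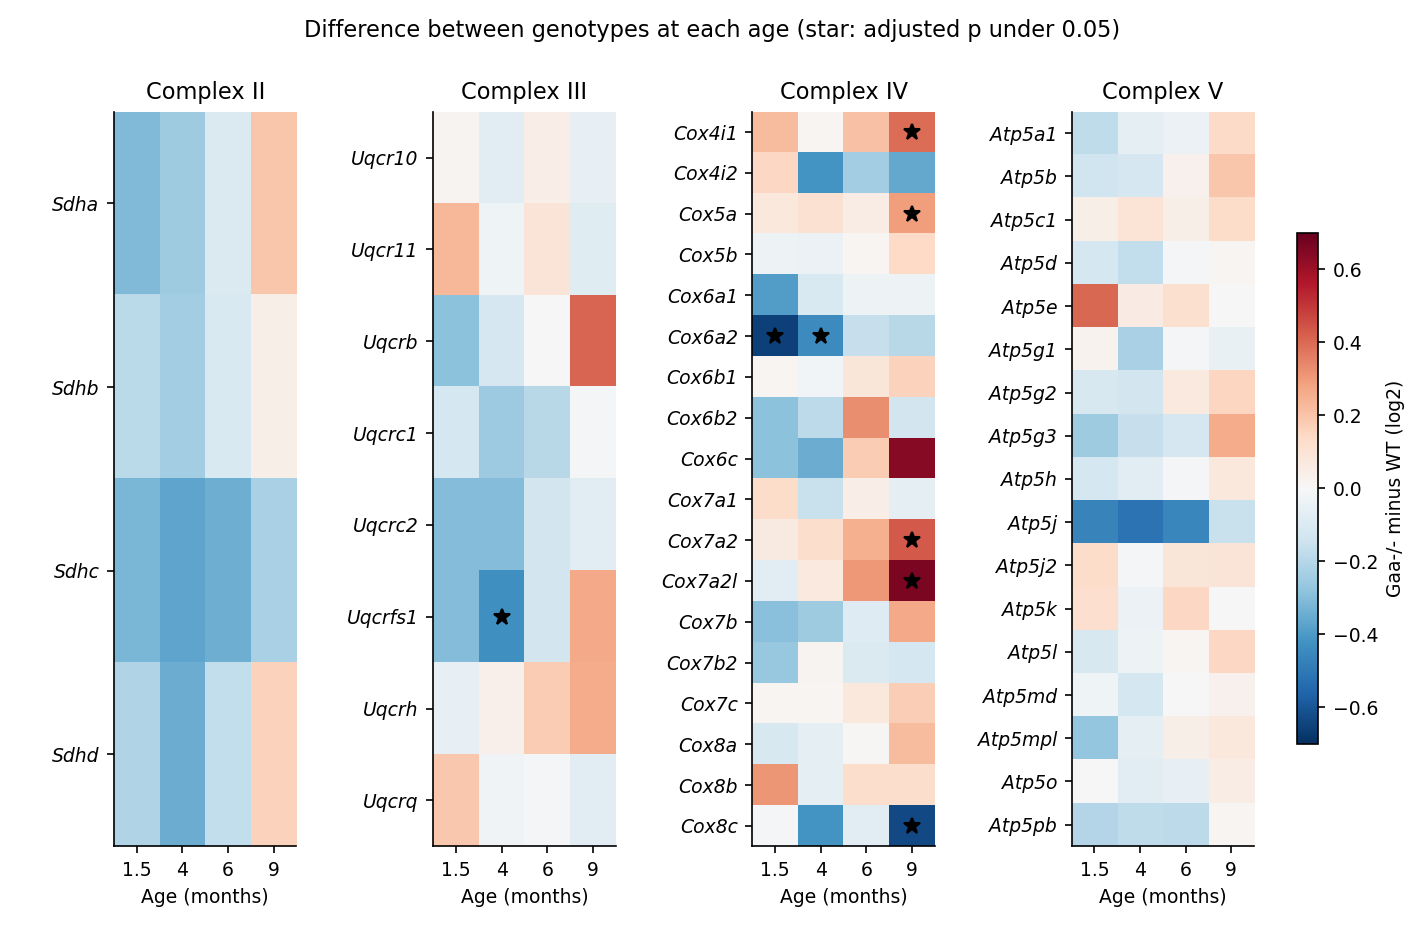
Difference of Gaa-/- minus WT (log2, colour scale from -0.7 to 0.7) for each gene at each age in months, by complex, with a star where the adjusted p was under 0.05. Complex II is lower at 1.5, 4 and 6 months, and the 4 higher calls at 9 months are all in complex IV.

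The 4 genes called higher at 9 months were all of complex IV (4 of its 18), and as 8.51% of the 47 they were near the 8.12% of all genes. They are compared with the WT arrays of 9 months that also enter the WT changes with age. Their calls over all ages were lost in the fit without the arrays of 9 months. Cox7a2l, which joins complexes III and IV into supercomplexes, read 8.33, 8.84, 8.80 and 8.95 in WT mice of 9 months and 9.23, 9.13, 9.56 and 9.64 in Gaa-/-. The groups did not overlap, and it was 1.58-fold higher in Gaa-/- (0.66 ± 0.14, adjusted p = 0.00151). At 6 months it read 9.06, 9.08, 8.95 and 9.15 in WT and 9.38, 9.35, 9.38 and 9.34 in Gaa-/-, again without overlap, but was not called (0.30 ± 0.14, adjusted p = 0.248). In WT it fell by 0.50 ± 0.14 from 1.5 to 9 months (-0.22 with the covariate and -0.30 after quantile normalization, neither called), and in Gaa-/- its change was 0.23 ± 0.14. The difference of these changes, 0.73 ± 0.20, had an adjusted p of 0.0543.

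Cox4i1, the common form of Cox4, read 10.89, 10.87, 10.99 and 11.02 in WT and 11.23, 11.36, 11.40 and 11.33 in Gaa-/- at 9 months. It was 1.31-fold higher in Gaa-/- with no overlap (0.39 ± 0.091, adjusted p = 0.00392). Cox5a read 10.604, 10.997, 10.808 and 11.039 in WT and 11.16, 11.07, 11.24 and 11.16 in Gaa-/- (0.29 ± 0.093, adjusted p = 0.0347). The groups again did not overlap. Neither gene was called for a change from 1.5 to 9 months in either genotype. Cox7a2 read 8.62, 9.06, 8.84 and 9.15 in WT and 9.29, 8.97, 9.53 and 9.59 in Gaa-/-, with some overlap (0.43 ± 0.13, adjusted p = 0.0323). Cox5a and Cox7a2 each lost the call at 9 months in 5 of the 8 fits without 1 array, and without WT 9 months replicate 1 the differences were 0.21 and 0.33. Both calls were also lost with the array spread as a covariate (adjusted p = 0.126 and 0.334) and after quantile normalization (0.13 and 0.128). With only the arrays of 9 months in the fit, Cox4i1 was not called either (adjusted p = 0.0927). Cox8c, a testis form near the array median, was lower at 9 months, with 6.21, 6.15, 6.10 and 6.22 in WT and 5.50, 5.57, 5.42 and 5.67 in Gaa-/- (-0.63 ± 0.18, adjusted p = 0.0171; -0.35 and adjusted p = 0.272 with the array spread as a covariate; adjusted p = 0.0557 without the 3 low arrays).

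Among the muscle isoforms, Cox6a2 differed most between genotypes. In WT mice it read 12.29, 12.15, 11.98 and 12.65 at 1.5 months, 12.02, 11.92, 12.05 and 11.91 at 4 months, 11.76, 11.84, 12.01 and 11.84 at 6 months and 11.74, 11.65, 11.72 and 11.75 at 9 months. In Gaa-/- mice it read 11.51, 11.75, 11.59 and 11.63, then 11.33, 11.51, 11.72 and 11.56, then 11.70, 11.64, 11.74 and 11.73, and last 11.45, 11.52, 11.60 and 11.53. At each of the 4 ages every Gaa-/- array lay below every WT array.

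Cox6a2 was 1.57-fold lower in Gaa-/- at 1.5 months (-0.65 ± 0.11, adjusted p = 0.00019) and 1.36-fold lower at 4 months (-0.44 ± 0.11, adjusted p = 0.009). At 6 and 9 months the differences were -0.16 ± 0.11 (adjusted p = 0.495) and -0.19 ± 0.11 (adjusted p = 0.27). The call at 4 months did not hold without the 3 low arrays (adjusted p = 0.0501). In WT the gene fell by 0.55 ± 0.11 from 1.5 to 9 months (adjusted p = 0.000799; -0.29 and adjusted p = 0.0648 after quantile normalization), and in Gaa-/- its change was -0.09 ± 0.11. The difference of these changes was 0.46 ± 0.15 (adjusted p = 0.139). Its partner Cox6a1 read 9.04, 8.99, 8.63 and 9.33 in WT and 8.54, 8.62, 8.77 and 8.51 in Gaa-/- at 1.5 months, with some overlap (-0.39 ± 0.12, adjusted p = 0.0542).

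Cox7a1 and Cox8b, the other muscle isoforms, fell with age in both genotypes and were not called between them. Cox7a1 read 11.44 on all 4 arrays of young WT mice and 10.75, 10.88, 10.89 and 11.08 in old ones, a fall of 0.54 ± 0.098 (adjusted p = 0.00035). In Gaa-/- it read 11.55, 11.58, 11.59 and 11.56 and then 10.76, 10.60, 11.03 and 10.92, a fall of 0.74 ± 0.098 (adjusted p = 1.45e-05). Cox8b fell by 0.47 ± 0.12 in WT (adjusted p = 0.00645) and by 0.65 ± 0.12 in Gaa-/- (adjusted p = 0.000841). The WT call of Cox8b was lost with the covariate (-0.30, adjusted p = 0.177) and after quantile normalization (-0.21, adjusted p = 0.162). The partner Cox8a was not called in any comparison of genotypes or of 1.5 with 9 months.

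**Figure D5:**
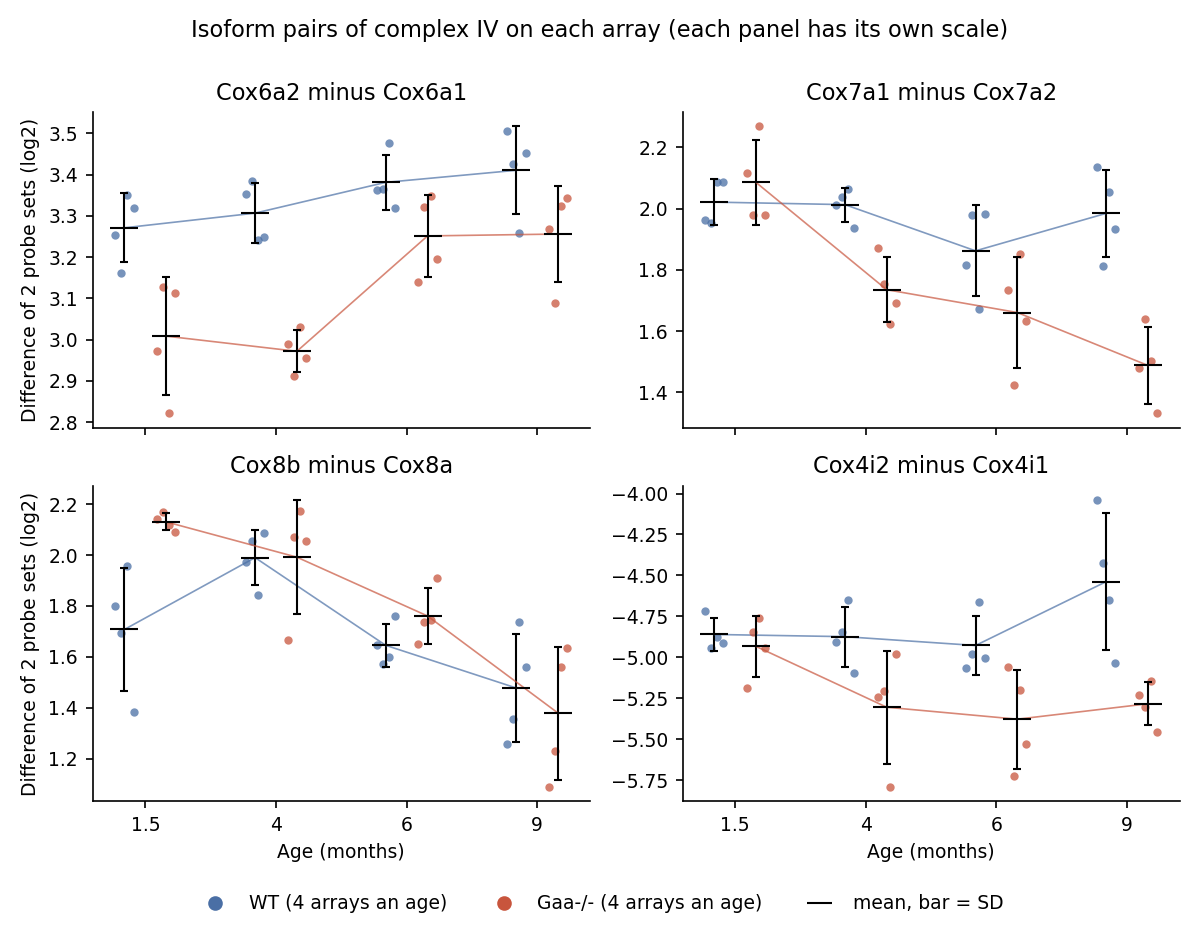
Difference between the probe sets of each isoform pair on every array (log2), by age in months (ages evenly spaced), with group means and SD bars. The level of a difference has no meaning across panels, and the change within a panel is what can be read: in Gaa-/- the Cox7a1 minus Cox7a2 difference lies at 2.09 at 1.5 months and at 1.49 at 9 months.

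The balance within a pair is a description with no test. Cox6a2 minus Cox6a1 was lower in Gaa-/-, with differences from WT of -0.26, -0.34, -0.13 and -0.15 in order of age. Cox7a1 minus Cox7a2 went from 2.02 ± 0.075 (SD, n = 4) to 1.98 ± 0.14 in WT between 1.5 and 9 months, and from 2.09 ± 0.14 to 1.49 ± 0.13 in Gaa-/-. At 9 months all 4 Gaa-/- arrays, 1.33 to 1.64, lay below all 4 WT arrays, 1.81 to 2.14. Cox8b minus Cox8a went from 1.71 ± 0.24 to 1.48 ± 0.21 in WT and from 2.13 ± 0.033 to 1.38 ± 0.26 in Gaa-/-. Cox4i2, the form of Cox4 known from lung, was dim, and Cox4i2 minus Cox4i1 was lower in Gaa-/- at 9 months (-0.75). Cox4i2 alone was lower over all ages (-0.22 ± 0.079, adjusted p = 0.0477), a call lost in 20 of the 32 fits without 1 array, under the covariate (-0.12) and without the 3 low arrays (-0.18).

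Other genes of the organelle were counted the same way, on lists chosen with earlier results known. Those named below were chosen from their values in these data. Beside these counts, 9.78% of all genes fell in WT and 2.07% in Gaa-/-, and over all ages 10.7% were higher and 8.81% lower in Gaa-/-. The list of 35 complex I genes measured held Ndufa4, now placed in complex IV. Of these 35, 24 fell in WT, Ndufa4 included, and 6 in Gaa-/- from 1.5 to 9 months, with medians of -0.38 and -0.25. Over all ages 3 were higher in Gaa-/- (Ndufa2, Ndufb7 and Ndufb10; 8.57%) and 6 lower (17.1%), with Ndufb10 at 0.26 ± 0.056 (adjusted p = 0.000865) and Ndufa3 at -0.28 ± 0.050 (adjusted p = 9.11e-05). The 34 genes listed as assembly factors of complexes II to V include Dmac1, which is known from complex I assembly. Of these 34, 14 fell in WT, Dmac1 included, and 5 in Gaa-/- (Bcs1l, Uqcc2, Taco1, Pet100 and Dmac1). Over all ages 2 were higher (Uqcc2 and Coa5) and 9 lower in Gaa-/-. Uqcc2, which helps to build complex III, was 1.35-fold higher in Gaa-/- (0.43 ± 0.054, adjusted p = 2.4e-07) and passed the threshold at each of the 4 ages.

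Of 15 citric acid cycle genes, 11 fell in WT. In Gaa-/- Suclg1 fell and Idh2, a mitochondrial isocitrate dehydrogenase, rose 2.37-fold (1.25 ± 0.28, adjusted p = 0.007). Over all ages 6 were lower in Gaa-/-, among them Cs, citrate synthase (-0.23 ± 0.048, adjusted p = 0.000599), and Pdhb of the pyruvate dehydrogenase complex (-0.44 ± 0.081, adjusted p = 0.000106). At single ages Cs passed the threshold at 1.5 months only (limma adjusted p = 0.0367), and Pdhb passed it at none. A list of 17 genes for cytochrome c, ubiquinone and carriers also held Cyc1 and Ckmt2, a mitochondrial creatine kinase. Of these 17, 11 fell in WT, Cyc1 and Ckmt2 included, and 2 in Gaa-/- (Coq9 and Ckmt2). Over all ages 1 of these was higher (Slc25a5) and 5 lower, with the outer membrane channels Vdac1 at -0.23 ± 0.038 (adjusted p = 2.54e-05) and Vdac3 at -0.29 ± 0.056 (adjusted p = 0.000175).

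Of 34 mitochondrial ribosome genes, 8 fell in WT and 2 in Gaa-/- (Mrpl34 and Mrpl37), and 4 were higher in Gaa-/- over all ages (Mrpl12, Mrps5, Mrps16 and Mrps18a), which at 11.8% is near the share of all genes. Of 17 regulators of mitochondrial biogenesis, Ppara fell with age in WT and 0 were called in Gaa-/-. Over all ages 5 of these were lower in Gaa-/- (Ppargc1a, Polg2, Polrmt, Esrrg and Ppara), with the coactivator Ppargc1a at -0.40 ± 0.11 (adjusted p = 0.00673). Ppargc1a passed the threshold at no single age (limma adjusted p = 0.0577, 0.971, 0.277 and 0.237 in order of age), and its difference at 4 months was -0.03.

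Markers of other cells also differed between the groups compared. Of 5 fibroblast markers, 5 fell in WT from 1.5 to 9 months (median -1.69) and 3, all collagens, fell in Gaa-/-. Their summed log2 values ran from 47.99 to 51.68 in young and from 39.90 to 43.05 in old WT mice, and from 49.97 to 53.25 and from 45.24 to 46.22 in Gaa-/-. Of 9 slow fibre markers, 6 fell and Tnnt1 rose in WT and 0 were called in Gaa-/-. Their sums were 66.52 to 68.10 and 61.87 to 64.16 in WT and 63.22 to 67.30 and 64.90 to 67.57 in Gaa-/-. The sums of both lists thus did not overlap between young and old WT mice, and those of the slow fibre markers overlapped in Gaa-/-. In WT the slow fibre sums were already 61.84 to 62.68 at 4 months and ran from 61.34 to 70.60 at 6 months. Those of the fibroblast markers were 45.73 to 48.88 and 44.70 to 47.32 at these ages.

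Of 8 macrophage markers, 7 were higher in Gaa-/- over all ages, with sums of 45.32 to 51.37 on the WT arrays and of 50.20 to 61.78 on the Gaa-/- arrays. Of the 5 fibroblast markers, Lum (1.02), Col3a1 (0.76) and Dcn (0.27) were higher. Of the 9 slow fibre markers, Myoz2 (0.69) and Atp2a2 (0.39) were higher and Myl3 (-0.24) was lower. Of 6 satellite cell and regeneration markers, Myog (0.35) and Myh3 (0.57) were higher, and of 7 adipocyte markers Plin4 (0.31) was. Of 6 endothelium markers, Cdh5, Kdr and Flt1 were lower in Gaa-/- over all ages, and Pecam1, Cdh5 and Emcn fell in WT. Of 10 skeletal muscle markers, Mb fell in WT and Actn3 and Pvalb fell in Gaa-/-, and the latter were also lower in Gaa-/- over all ages. No marker read 0 on the log2 scale. The part of these cells and fibres in the results above was not tested.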

How the data were processed

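Muscle RNA of 32 animals was read on 1-colour Affymetrix arrays. The deposited values were log2 levels per probe set, made by the authors with RMA in the package affy, per the submitters' processing notes. For versions, genome build and filters: not given in the sources used here. No batch or scan time is labelled.

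Of 20079 probe sets, 788 without a gene symbol were left out, and 19291 genes were fitted with limma 3.58.1 in R 4.3.3 as 8 group means (24 residual degrees of freedom). Tests were two-sided, with Benjamini-Hochberg adjustment over all genes and a threshold of 0.05. The fit was tested on simulated data. The members and all gene lists were chosen with earlier results of these data known. Named were the isoform pairs, the genes of complex II and subunit c, every gene called between genotypes, the 6 largest changes with age among called genes of each genotype, and the smallest and largest differences of each complex. Of the other lists, the 2 smallest p over all ages, Ppargc1a and Gaa were named. Other names were chosen after their values were seen.

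Alternatives were median-centred arrays, a second quantile normalization, array spread as a covariate, a replicate block, a filter on dim probe sets, an intensity trend, only the arrays of the comparison and each array left out. Leaving out the 9 month arrays, or the 3 arrays with the lowest members relative to their group, was added after seeing the data.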

Additional observations from a re-analysis of the deposited data

Results flagged for a closer look

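In each group of 4 arrays, the highest or lowest value was compared with the other 3 (Dixon's test at the 95% level) for the 31 genes named by rule. Of 248 such tests 20 found an array apart, where chance gives about 1 in 20. The values are log2 levels.

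Gaa-/- 9 months replicate 2 stood low in 5 genes. It read 9.63 for Cox6c where the other 3 arrays read 11.27 to 11.59, 10.67 for Uqcrb against 11.83 to 12.05, 9.10 for Atp5j against 9.90 to 10.01, 9.76 for Cox7b against 10.68 to 10.74, and 8.94 for Sdhd against 9.47 to 9.49. Gaa-/- 4 months replicate 1 stood low in 4 genes: 10.48 for Cox6c against 12.16 to 12.26, 11.67 for Uqcrb against 12.18 to 12.21, 10.74 for Atp5g3 against 11.05 to 11.10, and 9.48 for Sdhd against 10.13 to 10.19. Gaa-/- 1.5 months replicate 1 stood low for Cox6c (11.42 against 12.02 to 12.12) and Uqcrb (11.62 against 11.97 to 12.03) and high for Atp5e (8.85 against 8.64 to 8.67).

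The other 8 values were each on a different array. In WT, Atp5g2 read 11.51 at 4 months in replicate 3 against 11.41 on the others, Atp5j 10.58 at 1.5 months in replicate 3 against 10.88 to 10.93, Atp5l 9.42 at 6 months in replicate 4 against 9.57 to 9.60, Cox6c 11.90 at 6 months in replicate 3 against 11.60 to 11.64, and Uqcr10 9.95 at 4 months in replicate 1 against 10.05 to 10.06. In Gaa-/-, Atp5g2 read 10.99 at 9 months in replicate 1 against 11.21 on the others, Cox6b2 4.19 at 4 months in replicate 3 against 4.75 to 4.83, and Uqcr10 9.66 at 6 months in replicate 2 against 9.80 to 9.82.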

How the results depend on the processing

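Calls of the 47 genes moved most with the scaling of the arrays and with single arrays. The 31 calls followed were those between genotypes and the 6 largest changes with age of each genotype. Of these 31, 0 reversed under the alternatives run on all arrays or without the doubted ones. The covariate of array spread lost 10, a second quantile normalization 3, median centring 1, leaving out the 3 low arrays 7, and the dim filter and intensity trend 0. Fits on only the arrays of the comparison lost 5 of 20. The fits without the 9 month arrays lost 6 of 11. Smaller changes with age were lost more often than these 31 calls show. Of all 34 genes that fell in WT from 1.5 to 9 months, 15 held with the covariate and 15 after quantile normalization. Of the 13 in Gaa-/-, 13 and 11 held. The cause was not tested. Counts here and below are given without the share of all genes called under the same setting. They do not show whether a change in a count was particular to the respiratory genes.

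For age within WT (32 by the F-test) the count was 8 with the covariate, 14 after quantile normalization and 0 without 9 months, and within Gaa-/- (11) it was 5 with only its own arrays and 0 without 9 months. For WT from 1.5 to 9 months (34, median -0.44) the covariate gave 15 and -0.29, and quantile normalization 17 and -0.23. Between genotypes at 1.5 months (1) the covariate, dim filter, trend and quantile normalization each gave 2, and leaving out the 3 arrays 4. At 4 months (2) the covariate gave 7, quantile normalization 5, the trend 4, centring 1, and own arrays and the fit without the 3 arrays 0. At 6 months (0) the covariate gave 2, and the filter, trend, quantile normalization and the fit without the 3 arrays 1 each. At 9 months (5, median 0.08) the covariate gave 3 and -0.022, own arrays 2, and quantile normalization a median of -0.035.

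Leaving out each array in turn gave 1 to 2 calls at 1.5 months, 1 to 2 at 4, 0 at 6, 2 (without Gaa-/- replicate 3) to 9 (without Gaa-/- replicate 2) at 9 months, and 9 to 11 over all ages. It gave 23 (without WT 9 months replicate 1) to 34 for age within WT, and 5 (without Gaa-/- 9 months replicate 2) to 17 (without Gaa-/- 4 months replicate 1) within Gaa-/-. From 1.5 to 9 months it gave 25 to 35 in WT and 6 to 14 in Gaa-/-, lowest without the same arrays. The median difference ranged from -0.13 to -0.07 at 1.5 months, -0.15 to -0.02 at 4, -0.01 to 0.03 at 6, -0.01 (without WT replicate 1) to 0.16 at 9 and -0.05 to -0.00058 over all ages. The median change ranged from -0.50 to -0.37 in WT and -0.28 to -0.20 in Gaa-/-.

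The deviations of same-numbered arrays correlated from -0.20 to 0.30, and 7 of 32 arrays correlated best with their own number. Of 16 pairs 3 were over 0.1: replicates 2 and 3 at 1.5 months (0.21 and 0.30) and replicate 4 at 9 months (0.23). No batch is labelled, and whether same-numbered arrays shared a batch was not tested. The replicate block gave 1, 2, 0 and 5 calls in order of age and 11 over all ages, 32 and 12 for age in WT and Gaa-/-, and 34 and 14 from 1.5 to 9 months.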
